A study of Mus musculus with 12 samples.

Results

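A set of 10 long noncoding RNAs, which stay in the nucleus or carry small nucleolar RNAs (snoRNAs) in their introns, was followed across the RNA-seq groups of mpkCCD cells. They are Malat1, Neat1, Kcnq1ot1, Gas5, Snhg1, Snhg3, Snhg6, Snhg8, Snhg12 and Epb41l4aos. They were chosen by name, with earlier results of these data known, and all 10 were found among the 52015 genes used. Of these 10, 8 reached 0.5 FPKM (fragments scaled to exon length and library total) in at least 1 group, as did 13414 of all genes. Kcnq1ot1 and Snhg3 did not.

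The mpkCCD line originates from mouse principal cells of the cortical collecting duct. Scr cells carry a non-targeting guide RNA, and Nfat5-KO cells are clones in which CRISPR/Cas9 was used to delete Nfat5, which codes for a transcription factor activated by hypertonicity. Scr_300 and Nfat5-KO_300 were grown in isotonic medium of 300 mosmol/kg, and Scr_600 and Nfat5-KO_600 in medium raised to 600 mosmol/kg with 100 mM NaCl and 100 mM urea, in each case for 5 days. Each Scr group had 2 libraries, and each knockout group had 4 libraries, which came from 2 clones, N1 and N3. The knockout values hold both clones together, so that an effect of a clone and of the deletion cannot be told apart here.

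The deposited file gives 1 value per gene and group, the mean over its libraries. The low values lie on steps of whole reads, and these steps gave totals of 2.93e+07 to 3.75e+07 reads for the 12 libraries. For the Scr groups, which have 2 libraries, the whole reads of each library were recovered for 91.8% of the genes above 0 with a known length, all 10 noncoding RNAs included. These libraries are called a and b by their total, since the values do not tie them to a replicate number. The values of the 4 knockout libraries could not be separated. Of 14 markers of principal cells and their epithelium, 7 reached 0.5 FPKM in every group (Krt8, Krt18, Cdh1, Epcam, Gata3, Aqp3 and Scnn1a), of which the first 4 are general epithelial genes. The defining water channel gene Aqp2 had 0 to 0.245 FPKM, and Avpr2, Aqp4, Scnn1b, Scnn1g, Fxyd4 and Elf5 were also below 0.5 FPKM in every group. Of 12 markers of other kidney, blood and connective tissue cells, none reached it in 3 groups and 1 (Lrp2) did in Nfat5-KO_600, with 1.07 FPKM. Nfat5 itself had 5.61 FPKM in Scr_300 and 3.47 in Nfat5-KO_300, and 7.93 in Scr_600 and 6.88 in Nfat5-KO_600. An edit within the coding sequence can leave the RNA in place, so that this level is no check of the labels.

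Malat1 is an abundant RNA of nuclear speckles, the domains that hold splicing factors. Neat1 is the scaffold of paraspeckles, nuclear bodies that form around its long isoform and retain certain proteins and RNAs, and it is known as a stress-responsive transcript. Kcnq1ot1 is the paternally expressed antisense RNA that silences neighbouring genes of the Kcnq1 imprinted domain. The other members are hosts whose introns are processed into snoRNAs, which guide chemical modification of ribosomal RNA. Their spliced exons are usually short-lived, since translation of short reading frames exposes them to nonsense-mediated decay, and several start with a run of pyrimidines like the mRNAs of the translation machinery.

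All positions are those of GENCODE M21 on GRCm38. Malat1 lies at chr19:5795690-5802672 and Neat1 at chr19:5824708-5845478, both on the minus strand. The libraries were made from RNA captured on poly-T beads, which makes the 3′ ends of these transcripts relevant. The last 30 bases of the annotated Malat1 transcript and of the short and the long Neat1 transcript are shown for this reason, 5′ to 3′, with the polyadenylation signal AATAAA in capitals.
Malat1, chr19:5795690-5795719, minus strand: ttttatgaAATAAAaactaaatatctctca
Neat1 short transcript, 3004 bases, chr19:5842307-5842336, minus strand: tttacagcaaAATAAAggtttgagattgaa
Neat1 long transcript, 20771 bases, chr19:5824708-5824737, minus strand: gagaacgaacgtgagcaggaaaaagcaaaa
The signal was found in the annotated end of the short Neat1 transcript and of Malat1, and these letters were not in the end of the long Neat1 transcript. Of all 134529 annotated transcripts of at least 200 bases, 24.5% hold AATAAA on the transcribed strand in their last 30 bases. As background, the mature 3′ ends of Malat1 and of the long Neat1 isoform are cut by RNase P and are not polyadenylated, while the short Neat1 isoform is. The deposited values are per gene and divide the reads of Neat1 by 20771 bases, so that short and long Neat1 RNA cannot be told apart in them.

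Neat1 was the member that differed most between genotypes. It had 16.9 and 15.3 FPKM in the 2 libraries of Scr_300, and 17.3 and 23.7 FPKM in those of Scr_600. The knockout means were 7.03 FPKM at 300 and 6.23 FPKM at 600 mosmol/kg. Both knockout values lay below every Scr library. On log2 of FPKM plus 0.1, the scale of every ratio given here, Nfat5-KO over Scr was −1.18 at 300 mosmol/kg and −1.70 at 600 mosmol/kg. Against each Scr library alone it was −1.11 and −1.25 at 300 mosmol/kg, and −1.46 and −1.91 at 600 mosmol/kg. Of 12704 genes that reached 0.5 FPKM in either group, 2.44% were lower in the knockout by 2-fold or more at 300 mosmol/kg. The share was 3.68% of 13063 genes at 600 mosmol/kg, and Neat1 was the 1 of the 8 members past this fold in each of these comparisons. These ratios have no test here, since the knockout groups give 1 value each.

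Under hypertonicity, the 2 genotypes gave Neat1 values of opposite direction. In Scr cells, both Scr_600 libraries were above both Scr_300 libraries, and the log2 difference was 0.33 ± 0.18 (SE, 2 libraries per group), with an adjusted p of 0.338 by limma (Benjamini-Hochberg) over 11917 genes. It was 0.11 without library b of Scr_600 and 0.56 without library a. Non-overlap in this direction was seen in 23.7% of those genes. In Nfat5-KO cells the log2 ratio of 600 to 300 mosmol/kg was −0.17, which lay below all 4 ratios that the Scr libraries allow (0.03 to 0.63). Such a place below the Scr pairs was found for 29.8% of the genes, so that Neat1 shared this position with many genes. On the TPM scale, where each group is set to the same sum, the knockout ratio of Neat1 was 0.07 in place of −0.17.

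Malat1 had the second widest range over the groups, with a large distance between libraries of the same group. It had 60.5 and 29.5 FPKM in Scr_300, from 15184 and 6595 reads, and 79.5 and 57.9 FPKM in Scr_600, from 20612 and 14203 reads. The knockout means were 26.8 FPKM under isotonic and 66.2 FPKM under hypertonic conditions. The higher Scr_300 library exceeded the lower Scr_600 library, so that the Scr groups overlapped. The limma difference of Scr_600 minus Scr_300 was 0.68 ± 0.36 (SE, 2 libraries per group) on the log2 scale, with an adjusted p of 0.324. The ratio of the Scr group means was 0.61, and it was 1.21 without library a of Scr_300 and 0.18 without library b.

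In Nfat5-KO cells, Malat1 was 2.46-fold higher at 600 than at 300 mosmol/kg (log2 ratio 1.30), which lay inside the −0.06 to 1.43 spanned by the Scr library pairs. Of 12982 genes, 6.25% were at least 2-fold higher in this comparison, and Malat1 was the 1 member among them. At 300 mosmol/kg, the knockout mean was below both Scr libraries, with a log2 ratio of −0.75 to the Scr mean. This value rested on the library with 60.5 FPKM, since the ratio to the other library alone was −0.14. At 600 mosmol/kg, the knockout mean lay between the Scr libraries and the log2 ratio was −0.05 (0.07 on the TPM scale).

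**Figure D1:**
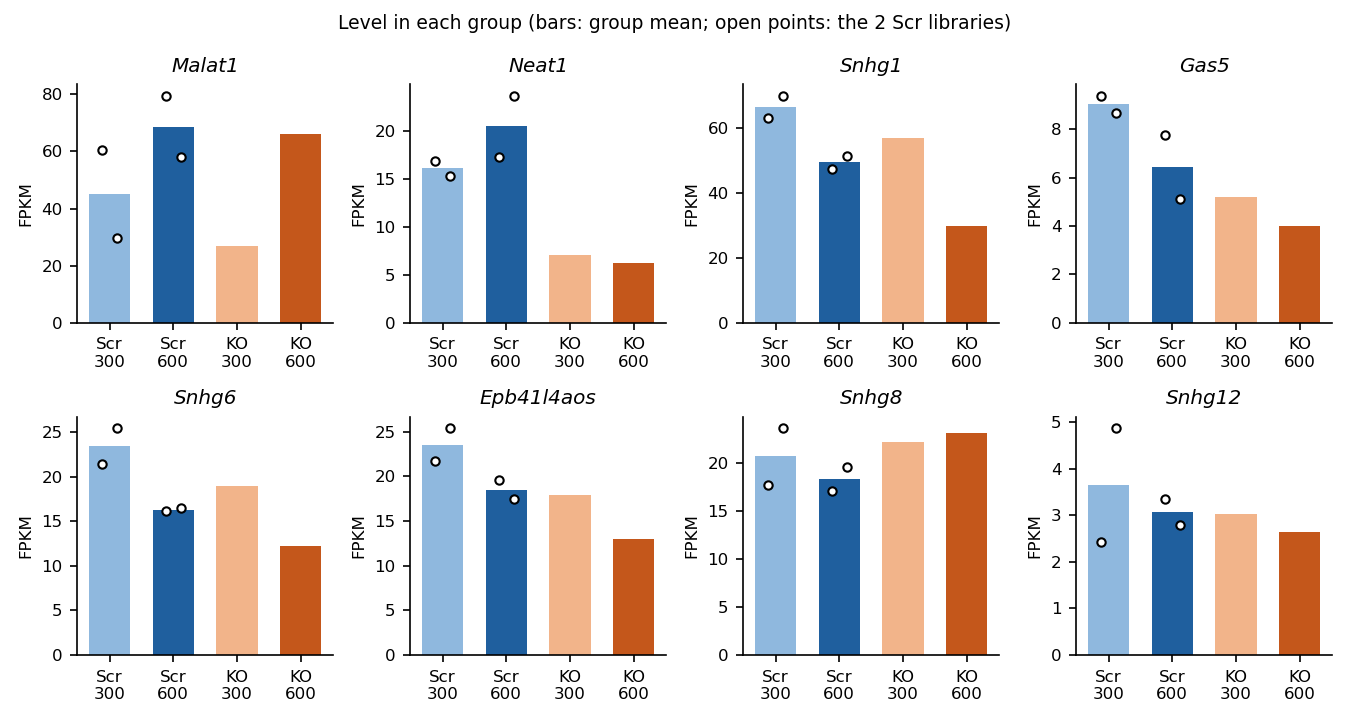
FPKM of the 8 members that reached 0.5 FPKM, by group, with KO for Nfat5-KO and 300 or 600 for the osmolality in mosmol/kg. Bars are group means (2 libraries in Scr, 4 in Nfat5-KO), open points are the 2 Scr libraries, and the knockout libraries cannot be shown. Neat1 is low in both knockout groups, at 7.03 and 6.23 FPKM, and the Malat1 points of Scr_300 lie at 60.5 and 29.5 FPKM.

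The spread of Malat1 was set beside that of other genes with 400 or more reads. In Scr_300, libraries a and b differed 2.05-fold in Malat1, and 99.1% of 9254 genes had a smaller distance, with a median of 1.11-fold. Snhg12 was close behind, with 1.96-fold and 99.0%. In Scr_600, Gas5 had the widest distance of the members, 1.503-fold, and 92.7% of 9379 genes had a smaller one. Malat1 was higher in library a than in library b in both groups, while Snhg12 was lower in library a of Scr_300 and higher in library a of Scr_600. Which property of the libraries goes with these distances was not tested.

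**Figure D2:**
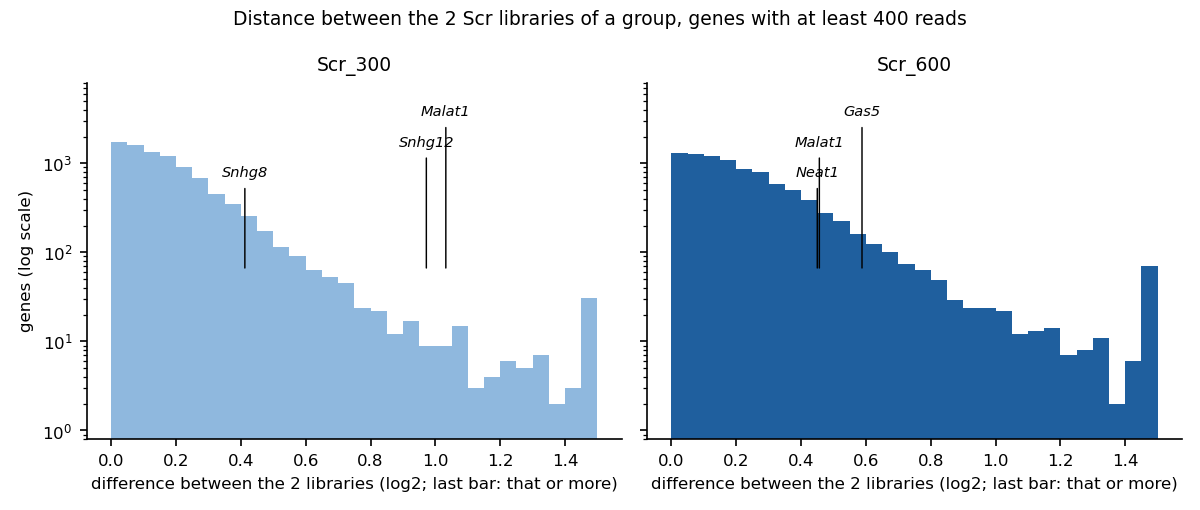
Number of genes (log scale) by the difference between the 2 libraries of Scr_300 (left) and of Scr_600 (right), on log2 of FPKM plus 0.1, for genes with at least 400 reads. Lines mark the members with a difference above that of at least 80% of the genes in the panel, and Malat1 and Snhg12 stand far to the right in Scr_300.

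Kcnq1ot1, at chr7:143203458-143296549 on the minus strand, lies antisense within Kcnq1 and counts 93092 exonic bases. Spread over this length its level was low, with 0.0242 and 0.0165 FPKM in Scr_300 (81 and 49 reads), and 0.0182 and 0.0165 FPKM in Scr_600 (63 and 54 reads). The knockout means were 0.0241 FPKM at 300 and 0.0255 FPKM at 600 mosmol/kg. The Scr groups overlapped, the knockout value was between the Scr libraries at 300 and above both at 600 mosmol/kg, and no ratio was taken. Whether the counting used the strand is not given in the sources used here, so that reads from introns of Kcnq1 and from Kcnq1ot1 cannot be told apart. Kcnq1, a potassium channel gene, had 3.03 FPKM in Scr_300, 1.69 in Scr_600, 2.03 in Nfat5-KO_300 and 1.79 in Nfat5-KO_600. Cdkn1c, a cell cycle inhibitor silenced in the same domain, was at 0.0602 FPKM or less in every group. Of the 10 genes of this domain, 6 reached 0.5 FPKM in Scr cells, and their median log2 ratio of Scr_600 to Scr_300 was −0.22.

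The snoRNA hosts other than Epb41l4aos are spread over several chromosomes. Gas5 lies at chr1:161034422-161038539 (plus strand), Snhg6 at chr1:9941959-9944118 (minus), Snhg8 at chr3:123507552-123508404 (minus), Snhg12 at chr4:132308623-132311024 (plus), Snhg3 at chr4:132348014-132353686 (minus) and Snhg1 at chr19:8723475-8726443 (plus).

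Start sites are given for Snhg1, Snhg3, Snhg8, Snhg12 and Gas5, with both of them for Gas5. They are shown because a pyrimidine run at the first base is the mark of transcripts that are translated with the ribosomal protein mRNAs. Each line gives 15 bases before the start and 15 from it on, on the transcribed strand, from the RefSeq promoter table of GRCm38.p6. Capitals mark the longest run of at least 6 C or T.
Gas5, chr1:161035151-161035180, plus strand: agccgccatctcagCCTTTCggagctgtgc
Gas5 upstream start, chr1:161034586-161034615, plus strand: agggggcgggcccgcgagctcgacagcccg
Snhg1, chr19:8723472-8723501, plus strand: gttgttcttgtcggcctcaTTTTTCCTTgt
Snhg8, chr3:123508322-123508351, minus strand: gcaccgttcagaagTCTCTTTggctgcgat
Snhg12, chr4:132308663-132308692, plus strand: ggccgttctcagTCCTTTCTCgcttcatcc
Snhg3, chr4:132353672-132353701, minus strand: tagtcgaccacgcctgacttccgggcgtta
The run covered the start base in Snhg8, Snhg12 and the downstream start of Gas5. It began 4 bases after the start in Snhg1, and the upstream start of Gas5 and that of Snhg3 had none of this length. The table holds a start of its own for 7 of the 10 members, with a further one for Gas5, and 4 of these 8 windows hold such a run. Of all 32851 windows in the table, 29.2% do, searched on the transcribed strand only. A match is a description of the letters, and the same hosts are described by their levels next.

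Of the 6 hosts above 0.5 FPKM, Snhg1 was the most abundant. It had 63.2 and 70.0 FPKM in Scr_300 and 47.4 and 51.5 FPKM in Scr_600, against knockout means of 56.9 and 29.8 FPKM. Both Scr_600 libraries were below both Scr_300 libraries, and both knockout means were below the Scr libraries of the same osmolality. The limma difference of Scr_600 minus Scr_300 was −0.43 ± 0.13 (SE, 2 libraries per group), with an adjusted p of 0.153. In Nfat5-KO cells the log2 ratio of 600 to 300 mosmol/kg was −0.93, below the −0.56 to −0.30 of the Scr pairs. Such a place below the Scr pairs was found for 29.8% of the genes. The difference between these responses, −0.50, was not tested. Its SD over 13414 genes, those of low level included, was 0.58. Snhg1 was lower in Nfat5-KO_600 than in Scr_600 by a log2 ratio of −0.73 and differed less at 300 mosmol/kg, with −0.23.

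Gas5, a host of snoRNAs that accumulates in growth-arrested cells, was lower in the knockout at both osmolalities. It had 9.39 and 8.68 FPKM in Scr_300 and 7.78 and 5.14 FPKM in Scr_600, with knockout means of 5.22 FPKM at 300 and 3.98 FPKM at 600 mosmol/kg. Set against Scr, the knockout was lower by a log2 ratio of −0.78 in isotonic and −0.68 in hypertonic medium. The second value rests on 2 libraries that differ 1.503-fold, and was −0.36 without library a of Scr_600 and −0.95 without library b. In Scr cells, the groups did not overlap, with a difference of −0.51 ± 0.22 (SE, 2 libraries per group) and an adjusted p of 0.246 by limma. This difference was −0.21 without library b of Scr_600 and −0.80 without library a. In Nfat5-KO cells the ratio of 600 to 300 mosmol/kg was −0.38, inside the range of the Scr pairs.

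Snhg6 and Epb41l4aos had much the same levels and directions. Snhg6 had 21.4 and 25.4 FPKM in Scr_300, 16.1 and 16.4 FPKM in Scr_600, and knockout means of 19.0 and 12.2 FPKM. Epb41l4aos, which lies at chr18:33794892-33795986 (plus strand) next to the cytoskeletal protein gene Epb41l4a, had 21.7 and 25.4 FPKM in Scr_300, 19.5 and 17.5 FPKM in Scr_600, and knockout means of 17.9 and 13.0 FPKM. Neither overlapped between the Scr groups. Snhg6 gave the smallest p of the members by limma, with a log2 difference of −0.52 ± 0.13 (SE, 2 libraries per group) and an adjusted p of 0.123. For Epb41l4aos the difference was −0.34 ± 0.14 and the adjusted p 0.226. The knockout ratios of 600 to 300 mosmol/kg, −0.63 and −0.45, were inside the ranges of the Scr pairs. Against Scr, Snhg6 had log2 ratios of −0.30 at 300 and −0.42 at 600 mosmol/kg, and Epb41l4aos −0.40 and −0.51. The first of these values for Snhg6 was −0.18 without library b of Scr_300 and −0.42 without library a.

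Snhg8 and Snhg12 showed the smallest ranges over the groups. Snhg8 had 17.7 and 23.6 FPKM in Scr_300, 17.1 and 19.6 FPKM in Scr_600, and knockout means of 22.1 and 23.1 FPKM. Its knockout mean was above both Scr libraries at 600 mosmol/kg, with a log2 ratio of 0.33, and at 300 mosmol/kg the mean lay between them. Snhg12 had 2.43 and 4.87 FPKM in Scr_300, 3.34 and 2.78 FPKM in Scr_600, and knockout means of 3.02 and 2.63 FPKM. The Scr groups overlapped for both genes. The limma differences were −0.16 ± 0.18 (SE, 2 libraries per group) for Snhg8 and −0.17 ± 0.34 for Snhg12, with adjusted p of 0.625 and 0.799. Both turned positive, to 0.05 and 0.31, without library b of Scr_300. Their 95% intervals, −0.60 to 0.28 and −1.01 to 0.67, leave room for changes in either direction.

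Snhg3 was practically without reads. It had 0 reads in both libraries of Scr_300, 2 reads in each of Scr_600 (0.0546 and 0.0577 FPKM), 3 reads over the 4 libraries of Nfat5-KO_300 and 0 in Nfat5-KO_600. A count of 0 allows up to 3 reads, which for Snhg3 is 0.0811 to 0.104 FPKM per library, for counting error only. No group was above this limit, and no fold was taken. Of the 986 exonic bases of Snhg3, 86.3% are also exonic in another gene. The antisense Gm17300 shares 705 bases, Rcc1, the gene for a regulator of the GTPase Ran, shares 135, and the snoRNA Snora73a shares 159. The next highest shares among the members were 20.9% in Snhg1 and 19.6% in Snhg12, where all shared bases belong to snoRNAs. Whether reads in shared bases were counted for any gene was not tested, so that low expression of Snhg3 and uncounted reads cannot be told apart. Rcc1 had 16.7 FPKM in Scr_300, 15.6 in Scr_600, 19.99 in Nfat5-KO_300 and 12.3 in Nfat5-KO_600, and Gm17300 0.137 to 0.262 FPKM.

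**Figure D3:**
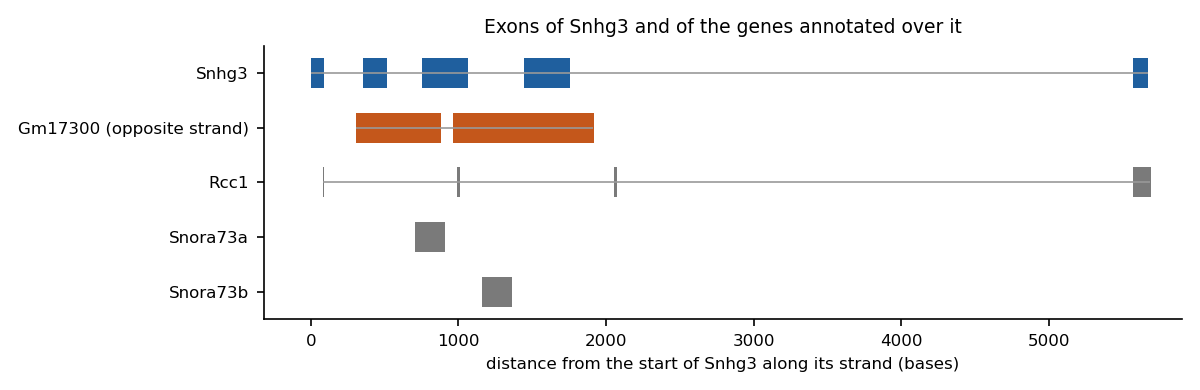
Exons (boxes) of Snhg3 and of the genes annotated over it, by distance in bases from the start of Snhg3 along its strand, with Gm17300 on the opposite strand in orange and the genes of the same strand in grey. Most of the Snhg3 boxes have another box above or below them at the same distance, and together 86.3% of its exonic bases are shared.

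The snoRNAs inside the hosts were nearly all listed at 0. The annotation places 28 snoRNA genes within the 7 hosts, of which 24 lie fully inside annotated exons of the host (transcripts with retained introns included), 1 lies across an exon border and 3 lie in introns. All 24 exonic ones were listed at 0 in every group. Of the 3 intronic ones, Snora73b in Snhg3 was listed at 0, while Snord87 in Snhg6 and Gm23639 in Epb41l4aos had values above 0. Snord87 had 1.16 FPKM in Scr_300, 0.791 in Scr_600, 0.466 in Nfat5-KO_300 and 0.252 in Nfat5-KO_600, which in Scr cells is 7 and 5 reads over both libraries. Gm23639 had 0.856, 0.737, 0.743 and 0.489 FPKM in this order, with 8 and 7 reads in the Scr groups. At so few reads no difference between groups was detectable, and mature snoRNAs have no poly(A) tail and are not measured by these libraries. Whether reads in bases shared with host exons were counted for any gene was not tested. For the 24 exonic snoRNAs, absent signal and uncounted reads cannot be told apart.

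Over the members, limma on the recovered libraries gave no call for Scr_600 against Scr_300. By this test, 0 of the 8 members passed an adjusted p of 0.05, against 1.59% of 11917 genes (0.948% higher, 0.638% lower). Snhg1 and Snhg6 were under an unadjusted p of 0.05, which 22.2% of the genes were, and voom on the recovered reads also passed 0 of the 8. Neat1 was without overlap upwards, and Gas5, Snhg1, Snhg6 and Epb41l4aos downwards, where the share of all genes was 31.9%. All 6 hosts had a ratio of group means below 0, from −0.52 to −0.17, with a median of −0.39 against −0.04 for all genes. On a fold of 1.5, 1 of the 8 members was higher (Malat1, with 10.4% of all genes) and 0 were lower (9.01% of all genes). The study's methods call the libraries biological replicates, and the labels do not name separate cultures, so that p-values measure the spread between these libraries.

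In Nfat5-KO cells, 1 of the 8 members was at least 1.5-fold higher at 600 than at 300 mosmol/kg (Malat1, with 14.1% of all genes), and 2 were at least 1.5-fold lower (Snhg1 and Snhg6, with 13.8% of all genes). On the TPM scale and with median-of-ratios factors, Snhg1 alone remained past this fold. The 6 hosts ranged from −0.93 (Snhg1) to 0.06 (Snhg8), with a median of −0.42. Neat1 and Snhg1 lay below all Scr library pairs, as did 29.8% of all genes. No member lay above these pairs, while 24.9% of all genes did. On the TPM scale the median of all genes moved from −0.04 to 0.20, and Neat1 and Snhg12 turned from −0.17 and −0.19 to 0.07 and 0.04. Relative to that median, 6 of the 8 members were below it on either scale.

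**Figure D4:**
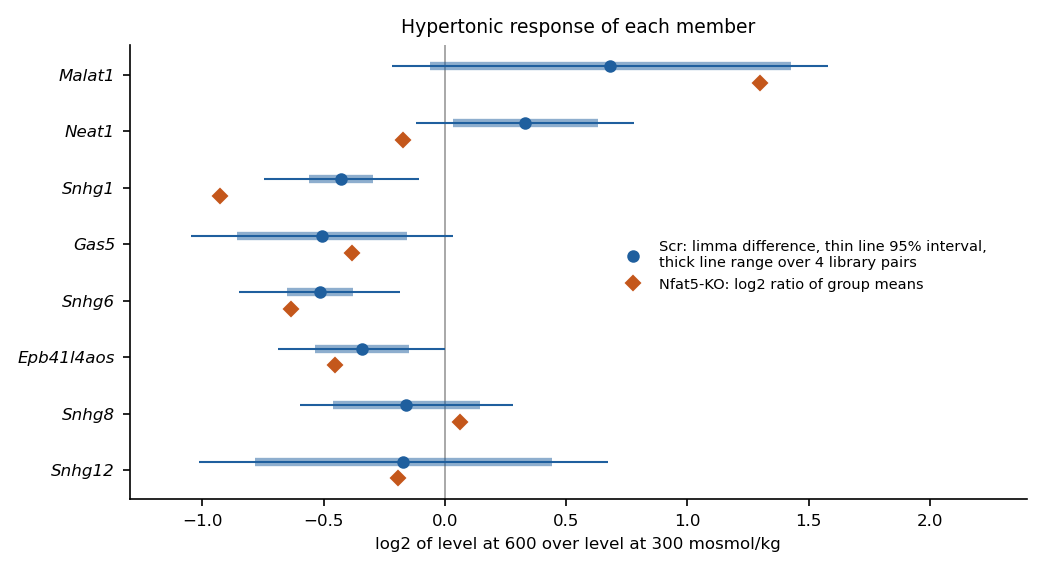
Level at 600 over level at 300 mosmol/kg (log2) for the 8 members. Blue points are limma differences of the 2 Scr_600 and 2 Scr_300 libraries, thin lines their 95% intervals, thick lines the range over the 4 pairs of libraries, and orange diamonds the ratios of the knockout means. The diamonds of Neat1 (−0.17) and Snhg1 (−0.93) lie to the left of the thick line, and those of the other 6 members lie on its range.

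Between genotypes, most members were lower in the knockout. At 300 mosmol/kg, 3 of the 8 were at least 1.5-fold lower (Neat1, Gas5 and Malat1), against 6.21% of all genes, and 0 were at least 1.5-fold higher (5.27% of all genes). The knockout mean was below both Scr libraries for 6 of the 8, a position found for 35% of 11791 genes, and above both for none (38.2% of the genes). At 600 mosmol/kg, Neat1, Snhg1 and Gas5 were at least 1.5-fold lower (9.44% of all genes) and 0 were higher (9.84%). Gas5 was no longer past this fold on the TPM scale (−0.56), with a pseudocount of 1 FPKM (−0.58) or without library a of Scr_600 (−0.36). The knockout mean was below both Scr libraries for 6 of the 8 (37.4% of 12132 genes), and above both for Snhg8 (36.4%). All 4 comparisons share groups in pairs, so that the ratios of a member at 300 and 600 mosmol/kg stand side by side here and are not independent of its hypertonic ratios.

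**Figure D5:**
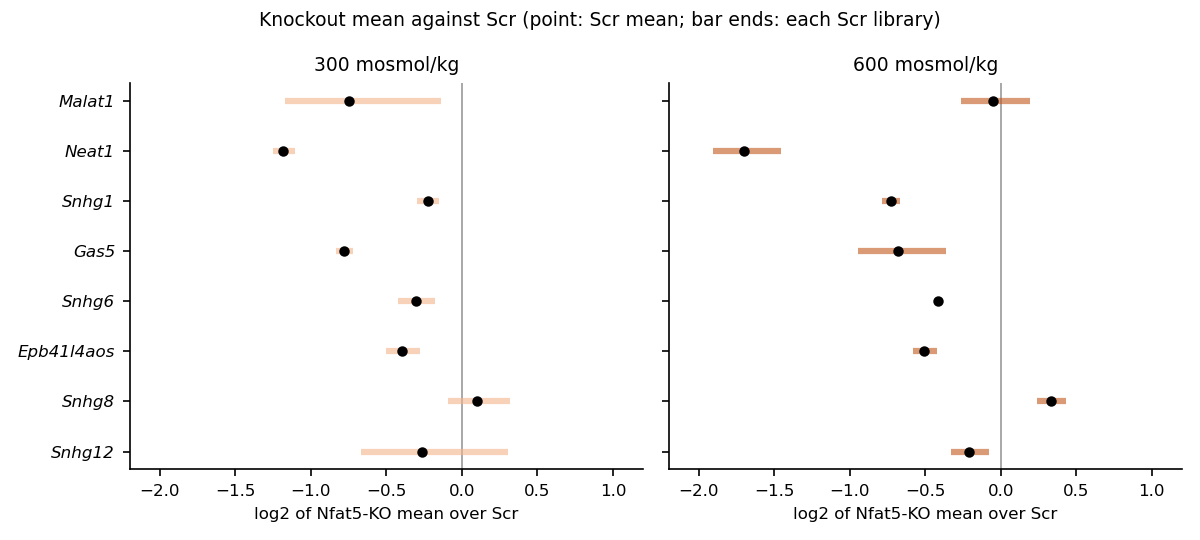
Log2 of the Nfat5-KO mean over Scr at 300 (left) and 600 mosmol/kg (right), on FPKM plus 0.1. Points are ratios to the Scr mean and the ends of the bars are ratios to each of the 2 Scr libraries. Neat1 lies at −1.18 and −1.70, and the bar of Malat1 at 300 mosmol/kg runs from −1.17 to −0.14.

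The order of the members, compared per length in FPKM, was led by Snhg1 and Malat1 in every group. Snhg1 was first in both isotonic groups, and Malat1 was first in both hypertonic groups. In Scr_300, Malat1 with 60.5 FPKM in its higher library did not reach the lower Snhg1 library with 63.2 FPKM, and Epb41l4aos, Snhg6 and Snhg8 overlapped with each other. In Scr_600, Neat1 overlapped with Epb41l4aos and Snhg8, and Gas5 and Snhg12 followed in this order in all groups. Neat1 was at place 3 in Scr_600 and at place 6 in Scr_300 and in both knockout groups.

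The genes for proteins of the nuclear bodies are given beside their RNAs. Of 16 paraspeckle proteins, 0 were 1.5-fold higher (10.4% of all genes) or lower (9.01%) in Scr_600 against Scr_300, with a median log2 ratio of −0.06. Between Nfat5-KO_600 and Scr_600, where Neat1 had −1.70, 1 of the 16 was 1.5-fold lower (9.44% of all genes). This was the splicing factor gene Hnrnph3, with 10.1 against 19.5 FPKM. The median of the 16 was −0.27, against −0.02 for all genes. On the TPM scale the median of all genes was 0.11, and ratios of the 16 were not taken on that scale. Of the 16, 15 had a ratio below 0 in this comparison, among them Nono (69.4 against 90.3 FPKM) and Sfpq (48.3 against 66.0 FPKM), which code for core paraspeckle proteins. The 1 with a ratio above 0 was Pspc1, which codes for another, with 11.0 against 9.11 FPKM. Of 15 nuclear speckle proteins, 0 passed a fold of 1.5 in any of the comparisons, where 5.27% to 14.1% of all genes did in each direction. Clk4, a kinase of splicing factors, had the highest ratio of them in Nfat5-KO_600 against Nfat5-KO_300, with a log2 ratio of 0.50, while Malat1 had 1.30.

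Genes for proteins that work with the snoRNAs mostly had lower values at 600 than at 300 mosmol/kg, with no call in Scr and no test in the knockout. Of 17 proteins of snoRNA particles and their assembly, 16 had a ratio below 0 in Scr cells (median −0.36, 2 at least 1.5-fold lower beside 9.01% of all genes, 0 of 17 past the adjusted p of limma). In Nfat5-KO cells 15 were below 0 and 12 were at least 1.5-fold lower (13.8% of all genes), with a median of −0.80. On the TPM scale, 6.89% of all genes were at least 1.5-fold lower in this comparison and their median was 0.20. Ratios of the 17 were not taken on that scale. Gar1, a protein of the particles that guide pseudouridylation, was 33.6 and 21.0 FPKM in Scr_300 and Scr_600 and 41.8 and 18.9 FPKM in Nfat5-KO_300 and Nfat5-KO_600. Pih1d1, an assembly factor, was higher at 600 mosmol/kg in both genotypes, with 13.5 and 17.0 FPKM in Scr and 9.74 and 14.2 FPKM in the knockout. Nop10, a small subunit of the same particles as Gar1, had 54.1 and 53.9 FPKM in Scr and 39.1 and 47.6 FPKM in the knockout. Between genotypes at 300 mosmol/kg these genes had a median of 0.17, whereas the hosts had −0.28.

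Of 20 genes known for a terminal pyrimidine run, other than ribosomal proteins, 19 had a ratio below 0 in each genotype. Their medians were −0.42 in Scr and −0.54 in the knockout. Beside them, the hosts had −0.39 and −0.42, and all genes had −0.04 in each genotype. On the TPM scale the median of all genes was 0.09 in Scr and 0.20 in the knockout. Ratios of the 20 were not taken on that scale. Eef1g, an elongation factor subunit, had 396.5 FPKM in Scr_300 and 253.4 in Scr_600, and Tpt1, the gene for a growth-related protein, was the 1 exception in Nfat5-KO cells, with 227.0 FPKM at 300 and 276.8 at 600 mosmol/kg. The reads of 10 of these 20 genes were recovered, of which 0 passed limma, beside 1.59% of 11917 genes. The 17 factors of nonsense-mediated decay had medians of 0.07 in Scr and −0.01 in the knockout. Among them, Rbm8a, a subunit of the exon junction complex, was 53.8 and 33.3 FPKM in Scr_300 and Scr_600, and 65.1 and 29.7 FPKM in the knockout.

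Other snoRNA hosts did not all go with the members. Of 14 further hosts listed, 8 reached 0.5 FPKM in Scr cells, and their median log2 ratio of Scr_600 to Scr_300 was 0.08. Snhg7 reached it in Scr_600 only, with 0.687 against 0.123 FPKM in Scr_300. In Nfat5-KO_600 against Scr_600 the median of 8 was −0.61, with 6 lower, beside −0.46 for the member hosts. Of these 8, 4 were at least 1.5-fold lower (9.44% of all genes) and 1 at least 1.5-fold higher (9.84%). The median was −0.27 for Nfat5-KO_600 against Nfat5-KO_300 and −0.08 for Nfat5-KO_300 against Scr_300. Snhg5 had 6.93 FPKM in Scr_300, 4.43 in Scr_600, 5.22 in Nfat5-KO_300 and 2.45 in Nfat5-KO_600, lower at 600 mosmol/kg like most members. Dancr had 2.81, 6.17, 2.63 and 2.95 FPKM in the same order, with 7.14 and 5.20 FPKM in the Scr_600 libraries and 3.09 and 2.53 FPKM in those of Scr_300. Zfas1 had 35.8, 30.4, 19.1 and 21.2 FPKM and was lower in the knockout at both osmolalities. Of 23 other long noncoding RNAs, 7 reached 0.5 FPKM, and Tug1, a nuclear RNA, was between 9.95 and 11.1 FPKM in all groups.

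Of 21 protein-coding neighbours of the members, 16 reached 0.5 FPKM in Scr cells. Slc25a45, a carrier gene next to the Malat1 and Neat1 locus, had 5.00 FPKM in Scr_300, 7.53 in Scr_600, 3.42 in Nfat5-KO_300 and 9.84 in Nfat5-KO_600, and Tigd3 had 2.48 and 3.97 FPKM in Scr cells. Epb41l4a, next to Epb41l4aos, had 8.11 FPKM in Scr_300, 13.0 in Scr_600, 10.0 in Nfat5-KO_300 and 14.9 in Nfat5-KO_600. Its log2 ratio of Scr_600 to Scr_300 was 0.68, while Epb41l4aos had −0.34. The median of this ratio over the 16 was 0.02, with 8 above 0 and 8 below 0. Among 7860 genes that reached 5 FPKM, the pattern most like that of Neat1 over the 4 group means was that of Tspan14, with a root mean square difference of 0.05 on the log2 scale, followed by Sh2d4b (0.12) and Gm5860 (0.13). Tspan14 had 41.6, 54.8, 19.2 and 17.9 FPKM in Scr_300, Scr_600, Nfat5-KO_300 and Nfat5-KO_600. The genes most like Malat1 were Rilpl1 (0.04), Coq10a (0.05) and Hn1 (0.09), and those most like Gas5 were Uhrf2 (0.07), Gm13453 (0.07) and Ak6 (0.08). With 4 points per gene, such likeness is a description.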

How the data were processed

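RNA-seq of 12 libraries of mpkCCD cells was used. Per the labels and the study's methods, the authors captured mRNA on poly-T beads, prepared libraries with the NEBNext Ultra kit, mapped paired-end reads to GRCm38/mm10 with HISAT2 and counted reads per gene with HTSeq. They deposited FPKM values, calculated from gene length and reads, as 1 column per group. Tool versions and the annotation release are not given in the sources used here. Of 54839 rows, 2436 without a value, 311 exact duplicates and 37 symbols with several rows were left out.

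With exon lengths of GENCODE M21, the low FPKM values gave the total reads of each library, and the whole reads of both libraries of each Scr group. Genes whose length or reads could not be resolved were left out of the test (11917 were tested), and 2 to 4 libraries per group limit the precision. Scr_600 was compared with Scr_300 by limma 3.58.1 (R 4.3.3, trend, Benjamini-Hochberg adjustment) on log2 of FPKM plus 0.1 for genes with at least 0.5 FPKM in either group. The other comparisons, and the difference of responses, are log2 ratios of group means with no test. The edgeR and DESeq2 tests were not used here. The study tested these comparisons with DESeq2, and its calls are not reported here. The deposited unit is FPKM, and whole reads were recovered for the Scr libraries only, on which voom was run as an alternative. The rule for named genes took all 10 members, Nfat5, the 2 genes of each context list furthest from 0 in each direction, and the 3 genes most like each of the 3 members with the widest range. Of the lists, only some of these are named, and Pspc1, Nono, Sfpq, Nop10, the marker genes, Kcnq1, Cdkn1c, Rcc1, Gm17300, Zfas1, Tug1 and Lrp2 were named for their place or role where the rule did not take them. Members and lists were chosen with earlier results of these data known. Alternatives were pseudocounts of 1 and 0.01, the TPM scale, median-of-ratios factors, no filter, a group mean from 1 FPKM on and leaving out each Scr library. Voom on the recovered reads, and these filters within limma, were chosen after seeing the data. The steps were tested on simulated data. Other steps used Python 3.11.15, numpy 2.4.6 and pandas 2.3.3.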

Additional observations from a re-analysis of the deposited data

How the results depend on the processing

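No paired analysis was possible because the Scr_300 and Scr_600 libraries share no replicate number and the knockout columns hold no values per library. Of 192 log2 ratios of members under 8 alternatives, 184 kept their direction, as did 59 of 64 differences of responses and 86 of 88 limma differences under 11 alternatives. The limma difference of Snhg8 ranged from −0.37 without library a of Scr_300 to 0.047 without library b, and that of Snhg12 from −0.66 to 0.31. The adjusted p of the members by limma (Benjamini-Hochberg) ranged from 0.113 to 0.962 over all alternatives. The number of genes past it, 189, was 387 by voom, 0 with no filter and 0 to 19 with 1 library left out, where a lone library was assumed to vary like the others.

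In Scr_600 against Scr_300, leaving out 1 library gave 0 to 1 members at least 1.5-fold higher, 0 to 1 at least 2-fold higher and 0 to 2 at least 1.5-fold lower, and no filter gave 2 members 1.5-fold higher. In Nfat5-KO_600 against Nfat5-KO_300, 1 member was 1.5-fold lower on the TPM scale and 1 with median-of-ratios factors. In Nfat5-KO_300 against Scr_300, 1 to 2 members were 2-fold lower with 1 library left out. In Nfat5-KO_600 against Scr_600, 2 members in place of 3 were 1.5-fold lower on the TPM scale, with a pseudocount of 1 FPKM or without library a of Scr_600, and 4 with no filter.

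The shares of all genes moved with the pseudocount and the scale. With a pseudocount of 1 FPKM they were 6.07% (1.5-fold higher) and 5.11% (1.5-fold lower) for Scr_600 against Scr_300, and 7.76% (1.5-fold higher) and 2.00% (2-fold higher) for Nfat5-KO_600 against Nfat5-KO_300. For Nfat5-KO against Scr they were 2.36% (1.5-fold higher), 2.81% (1.5-fold lower) and 0.685% (2-fold lower) at 300 mosmol/kg, and 4.98%, 5.75% and 1.55% at 600 mosmol/kg. For Nfat5-KO_600 against Nfat5-KO_300, the TPM scale gave 24.0% (1.5-fold higher), 9.65% (2-fold higher) and 6.89% (1.5-fold lower), no filter 9.02% (1.5-fold lower) and a mean of 1 FPKM or more 4.16% (2-fold higher). The last filter gave 1.38% (2-fold lower) for Nfat5-KO_300 against Scr_300. The cause of these shifts was not tested. Clones cannot be told apart in the knockout means, and neither can low expression of Snhg3 and uncounted reads.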
